A study of Mus musculus with 14 samples.

Results

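The genes described here handle cholesterol and lipoproteins in microglia, the resident macrophages of the brain. They are the apolipoproteins Apoe and Apoc1, lipoprotein lipase (Lpl), the efflux transporters Abca1 and Abcg1, the sterol-sensing receptors Nr1h2 and Nr1h3, and Mylip, Soat1 and Lpcat3. These 10 genes were taken by symbol from a table of 24394 named genes, and all 10 were found. A mean of at least 10 normalized counts over all libraries was required for testing, which 9 of them and 11646 genes in all passed. Apoc1 did not pass.

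RNA was sequenced from microglia of C57BL/6 mice aged 18 months, after an osmotic pump had delivered a blocking antibody to CD22 (anti-CD22) or a control antibody (IgG) into the cerebrospinal fluid for 1 month. CD22 is an inhibitory receptor that binds sialic acid. Both groups were therefore cannulated aged mice, with no uninfused or young group among these libraries. Each of the 14 libraries, 7 per group, came from about 20000 living cells that were CD11b+ with low CD45, sorted from the side of the brain opposite the cannula. The labels do not say that each library is a separate animal, so the p-values speak of the spread among these samples only. Differences in sorted bulk RNA do not separate fewer cells of a type from less RNA per cell, which cannot be told apart here.

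Microglia that take up lipoproteins or dead cells load cholesterol, which they store as ester or release. Oxysterols made from the excess activate the liver X receptors (LXR), encoded by Nr1h2 and Nr1h3. These receptors bind DNA with a retinoid X receptor and switch on the transporters Abca1 and Abcg1 and the carrier Apoe. Apoe is made mainly by astrocytes in the healthy brain, and with Lpl it is among the genes known to be raised in the microglia that surround amyloid plaques.

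The libraries summed to between 27357939 and 29197481 normalized counts, and the whole reads behind 13 of them to between 20221836 and 38101421. Checked against markers, the 10 microglia genes (such as P2ry12 and Tmem119) took from 6.91% to 7.35% of anti-CD22 libraries and from 6.66% to 7.44% of IgG libraries. The astrocyte genes Gfap and Aqp4 did not exceed 88.4 and 12.4 normalized counts in any library, and 2 of 6 endothelial genes, Cldn5 and Slco1a4, were listed at 0 in all. The endothelial markers together, among them Flt1, summed to between 0 and 54.0 normalized counts with anti-CD22 and between 18.9 and 76.1 with IgG. The summed astrocyte markers were nonetheless at 6657 to 8540 normalized counts with anti-CD22 and 5927 to 8617 with IgG, most of it from Slc1a3, a transporter gene. Oligodendrocyte markers summed to 4949 to 5660 with anti-CD22 and 5451 to 6710 with IgG, most of it from Cnp. Neutrophil markers summed to between 0 and 10131 normalized counts in anti-CD22 libraries and between 3.34 and 53327 in IgG libraries, with the highest in IgG replicate 1.

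None of the 9 tested genes differed between anti-CD22 and IgG beyond the spread between libraries. At an adjusted p under 0.05 by limma, 0 of the 9 tested genes were called, where the whole table had 0.00859% called, which is 1 gene. At an unadjusted p under 0.05 the 9 genes again gave 0, against 12.8% of all genes tested. The groups overlapped for all 9, while 0.258% of genes tested had groups that did not overlap. Of the 9 genes, 5 had a log2 fold change above 0 and 4 below 0, where 49.8% of all genes tested lay below 0. Their median was 0.0026, beside 0.0011 for all genes tested. On whole reads of 13 libraries, edgeR and DESeq2 each called 0 of the 9. Over all genes edgeR called 0% of 11560, and DESeq2 0.462% of the 8651 to which it gave an adjusted p. At an unadjusted p under 0.05, edgeR gave 1 of the 9 (Lpl), against 8.79% of its 11560 genes. DESeq2 gave 0, against 12.6% of the same 8651 genes. Nr1h3 had no adjusted p by DESeq2, whose own filter left it out. With each library's trend with transcript length and GC content removed, 0 were called of the 9 and of all genes, and 1 of the 9 (Lpl) had an unadjusted p under 0.05, against 8.93% of all genes.

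**Figure D1:**
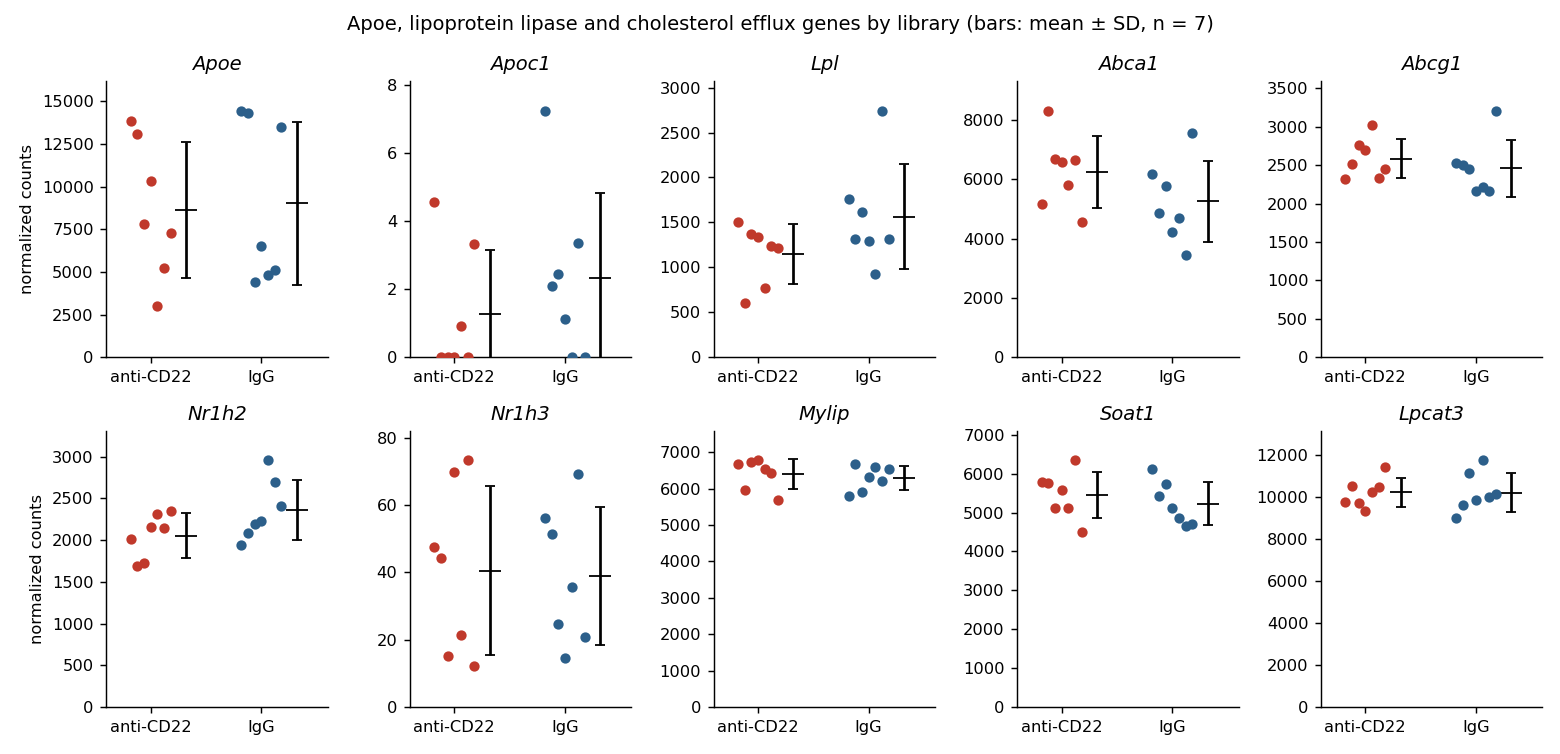
Normalized counts of the 10 genes in each library, with replicates 1 to 7 of anti-CD22 (red) and then of IgG (blue) from left to right in each panel, and bars for the mean ± SD (n = 7, cut at 0 for Apoc1). Apoe and Nr1h3 spread widely in both groups, Mylip and Lpcat3 lie close together, and the groups overlap in each panel.

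The apolipoproteins were examined first. Apoe, the main cholesterol carrier of the brain (chromosome 7: 19696109 to 19699188, minus strand, GRCm38), had from 3023 to 13835 normalized counts with anti-CD22, with a median of 7779. With IgG it had from 4417 to 14453, with a median of 6513. The means were 8648 ± 3983 normalized counts in anti-CD22 libraries and 9014 ± 4790 in IgG libraries (SD, n = 7 each). In the IgG group replicates 1, 2 and 7 stood high and the other 4 low, with nothing in between, while the anti-CD22 libraries filled the range and held the lowest value, in replicate 5. By limma, Apoe had a log2 fold change of -0.03 with an SE of 0.33 and a 95% interval from -0.73 to 0.66 (adjusted p = 0.977). An interval this wide does not show that the groups were alike.

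Apoc1, a small apolipoprotein encoded beside Apoe (chromosome 7: 19689481 to 19692660), was close to absent. It was above 0 in 3 of 7 anti-CD22 libraries, with at most 4.58 normalized counts, and in 5 of 7 IgG libraries, with at most 7.26. In whole reads these were 5 and 8, and a count of 0 still allows up to 3 reads in a library. No fold change is given for Apoc1. Its log2 ratio to Apoe, with 1 added to each count, differed by -0.56 between anti-CD22 and IgG (SE 0.67, two-sided exact permutation p = 0.411, adjusted p = 0.616), a value that rests on these few reads. With 0.5 added in place of 1 it was -0.79, and with 10 added -0.089, so its size depended on the count added. In libraries with Apoc1 at 0 the ratio holds only that added count and Apoe. Leaving out 1 library moved the difference between -0.91, without IgG replicate 7, and -0.30, without anti-CD22 replicate 2.

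Apoe varied between libraries of the same group more than nearly any gene of its level. Its SD within groups was 0.78 on the log2 scale, and the 858 genes within 2-fold of its level had a median SD of 0.12. Of these, 1 gene had a larger SD than Apoe. That gene was Cd74, the invariant chain of MHC class II, with an SD of 1.18, named here after its values were seen. Counting error made up 0.0377% of the variance of Apoe within groups, so depth did not limit its precision. Lpl, with an SD of 0.49, was exceeded by 21 of 3672 genes near its level (0.572%), and Abca1, with 0.33, by 12 of 1296 (0.926%). At the other end Mylip had an SD of 0.09, and 86.9% of the 1154 genes near its level varied more. Lpcat3 (0.11), Soat1 (0.15), Abcg1 (0.17), Nr1h2 (0.20) and Nr1h3 (0.92) had SDs that 26.0% to 53.0% of genes near their level exceeded.

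**Figure D2:**
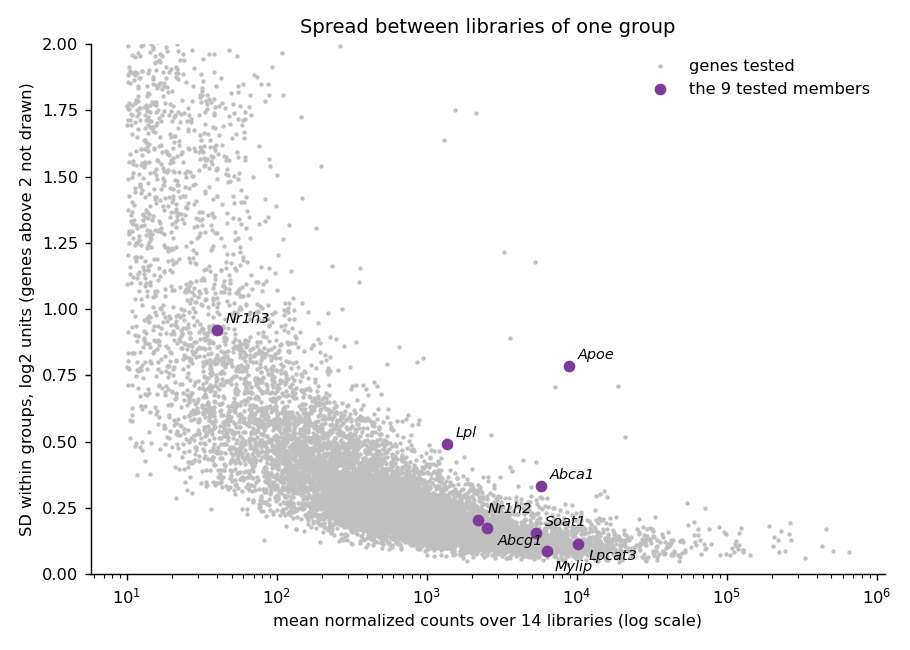
SD within groups of log2(normalized count + 1) against the mean normalized count over 14 libraries, for all genes tested (grey) and the 9 tested genes (purple); the x axis is logarithmic. Apoe, Lpl and Abca1 sit above the band of genes of like level, and Mylip lies at its lower edge.

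The Apoe level moved with the markers of other macrophages in these sorted cells. Border macrophages, which live in the meninges and around vessels and usually carry more CD45 than microglia, were followed by the sum of 8 genes, of which 7 passed the filter on low values. The sum ranged from 274 to 2534 normalized counts with anti-CD22 (median 937) and from 115 to 1846 with IgG (median 460). Within it, the mannose receptor Mrc1 had from 143 to 778 normalized counts with anti-CD22 and from 56.0 to 564 with IgG. The haemoglobin receptor Cd163 had from 0 to 213 with anti-CD22 and from 0 to 102 with IgG, and the median of Lyve1 was 0 in both groups. F13a1 had from 13.9 to 877 with anti-CD22 and from 8.95 to 417 with IgG. Pf4 reached 104 with anti-CD22 and 70.4 with IgG. The other members reached higher values with IgG. Ms4a7, Cbr2 and Clec12a had at most 306, 94.6 and 154 with anti-CD22, and at most 348, 172 and 384 with IgG. The whole sum was thus at most 0.00917% of an anti-CD22 library and 0.00666% of an IgG library.

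With group means removed, Apoe and the border macrophage sum correlated over the 14 libraries with Pearson's r of 0.87 (permutation p = 0.00028, adjusted p = 0.0202 over 72 relations of 9 genes with 8 marker sums). Spearman's rho was 0.85 (permutation p = 0.00096), at an adjusted p of 0.0691. Without the 2 libraries farthest from the median of Apoe, r was 0.89. Among the anti-CD22 libraries alone r was 0.88 (n = 7). The IgG libraries formed a high set of 3 and a low set of 4 on both measures, and no separate r is given for them. The monocyte sum gave r = 0.82 with Apoe (permutation p = 0.00121, adjusted p = 0.0406) and rho = 0.78 (permutation p = 0.00256, adjusted p = 0.0922), with r = 0.77 without the 2 farthest libraries. Most of the higher monocyte sums came from Chil3, with up to 1987 normalized counts with anti-CD22 and up to 8557 with IgG, while Ccr2 had at most 318 with anti-CD22 and 406 with IgG. The neutrophil sum gave r = 0.71 (permutation p = 0.0109, adjusted p = 0.181) and rho = 0.76 (permutation p = 0.00456, adjusted p = 0.109). For the endothelial sum, at no more than 76.1 normalized counts, r was 0.62 (permutation p = 0.0151, adjusted p = 0.181), or 0.28 without the 2 farthest libraries. For the microglia sum r was -0.54 (permutation p = 0.0429, adjusted p = 0.272). For the astrocyte, oligodendrocyte and neuron sums r was -0.28, -0.05 and 0.21. What part the border macrophages have in the Apoe level was not tested.

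With the border macrophage sum as a covariate, Apoe differed by -0.43 on the log2 scale (SE 0.18, unadjusted p = 0.0258, adjusted p = 0.505 by limma), beside -0.03 without it. This fit was chosen after seeing the data, with a marker sum already seen to follow Apoe in these same libraries. With the length and GC trend also removed it gave -0.32 (unadjusted p = 0.0635, adjusted p = 0.709 by limma). Without anti-CD22 replicates 1, 2 and 3, and without the covariate, Apoe differed by -0.43 (adjusted p = 0.991 by limma). Of these libraries, replicate 2 had the highest border macrophage sum. Replicates 1 and 2 also had the highest Apoe of the anti-CD22 group, at 13835 and 13060 normalized counts.

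**Figure D3:**
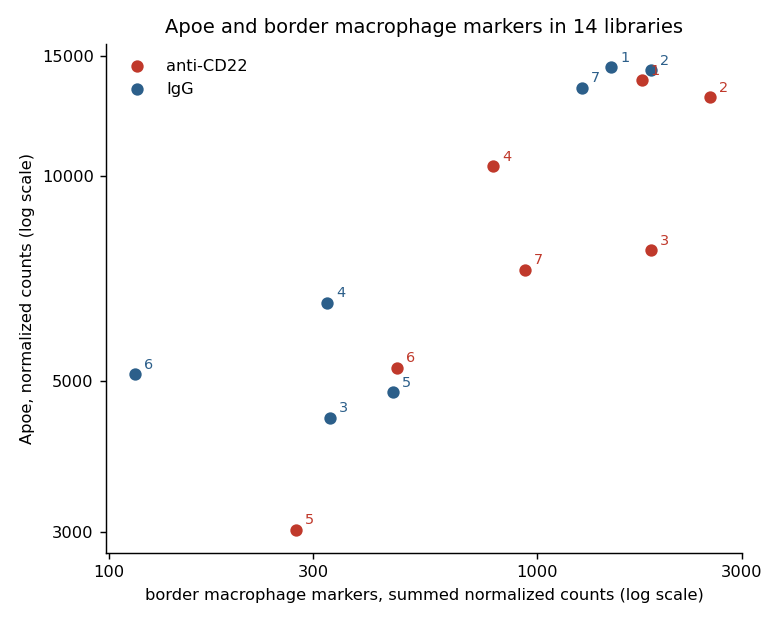
Apoe against the summed border macrophage markers in the 14 libraries, in normalized counts on logarithmic axes, with each point labelled by its replicate number (red, anti-CD22; blue, IgG). Apoe is mostly high where the marker sum is high, and ranges from 3023 normalized counts in anti-CD22 replicate 5 to 14453 in IgG replicate 1. Anti-CD22 replicate 3 has a sum of 1839 with Apoe at 7779, and replicate 4 a sum of 789 with Apoe at 10332.

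The genes most like Apoe across libraries were searched among 9428 genes with a mean of at least 100 normalized counts, again with group means removed. The closest were the lysozyme gene Lyz2 (r = 0.92), the MHC class II gene H2-Eb1 (r = 0.92) and Ms4a7 (r = 0.91), which is also 1 of the 8 border macrophage markers. H2-Eb1 ranged from 135 to 3362 normalized counts with anti-CD22 and from 217 to 3942 with IgG. Lyz2 ranged from 3307 to 10302 with anti-CD22 and from 4002 to 17537 with IgG. In all, 30 genes had an r above 0.8 with Apoe, while 14 had one with Abca1 and 2 with Lpl. These values describe 14 libraries and are given without a p.

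Lipid uptake was represented by Lpl, a secreted lipase that cuts triglycerides in lipoproteins (chromosome 8: 68880491 to 68907448, plus strand). It had from 602 to 1501 normalized counts with anti-CD22 (median 1242) and from 922 to 2743 with IgG (median 1312). The 3 highest libraries, replicates 6, 1 and 3, were of the IgG group and the 2 lowest, replicates 2 and 5, of the anti-CD22 group, with the other libraries overlapping. The means were 1147 ± 333 normalized counts in anti-CD22 libraries and 1564 ± 584 in IgG libraries (SD, n = 7 each). On the log2 scale Lpl differed by -0.44 between anti-CD22 and IgG (SE 0.22, 95% interval from -0.89 to 0.01). The unadjusted p was 0.0563 and the adjusted p 0.407 by limma, and the IgG median exceeded 4 of the 7 anti-CD22 libraries.

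The size of the Lpl difference rested on single libraries. Leaving out IgG replicate 6 gave -0.29, and leaving out anti-CD22 replicate 2 likewise gave -0.29. After removal of the length and GC trend it was -0.53 (unadjusted p = 0.0248, adjusted p = 0.487), and by edgeR on 13 libraries -0.49 (unadjusted p = 0.0435, adjusted p = 0.557). The library that edgeR left out was anti-CD22 replicate 3. Limma without that library also gave -0.49 (unadjusted p = 0.0420, adjusted p = 0.536). Over all 30 alternatives the Lpl difference stayed below 0, from -0.55 to -0.29, with adjusted p from 0.225 to 0.972. The genes most like Lpl were Dffb (r = 0.83), Xrcc6bp1 (r = 0.81) and Pcbd2 (r = 0.78), and Xrcc6bp1 was the highest of them at no more than 366 normalized counts in any library. Without the 2 libraries farthest from the median of Lpl, these r were 0.66, 0.73 and 0.58. Lpl and Apoe did not track each other, with r = 0.05 (permutation p = 0.863) and rho = 0.21 (permutation p = 0.475), both over 14 libraries.

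Among the transporters, Abca1 loads cholesterol and phospholipid onto lipid-poor apolipoproteins such as Apoe (chromosome 4: 53030787 to 53159895, minus strand). It had from 4574 to 8313 normalized counts with anti-CD22 (median 6568) and from 3462 to 7567 with IgG (median 4876). In the anti-CD22 group 6 of 7 libraries exceeded the median of IgG, while IgG replicate 7 exceeded all but 1 of them. The means were 6249 ± 1221 normalized counts in anti-CD22 libraries and 5251 ± 1367 in IgG libraries (SD, n = 7 each). This gave a log2 fold change of 0.27 (SE 0.15) with a 95% interval from -0.04 to 0.57, at an unadjusted p of 0.0805 and an adjusted p of 0.448 by limma.

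Abca1 has the longest transcript of the 10 genes, at 10262 bases. Spearman's rho of a library's values with transcript length ranged from -0.27 to 0.33 in anti-CD22 libraries, highest in replicates 1, 2 and 3, and from -0.26 to -0.0029 in IgG libraries. With GC content it ranged from -0.40 to 0.26 in anti-CD22 libraries, lowest in the same 3 replicates, and from 0.0093 to 0.28 in IgG libraries. Once the trends with length and GC content were taken out of each library together, Abca1 stood at 0.09 on the log2 scale (unadjusted p = 0.443). Leaving out IgG replicate 6 gave 0.18, and leaving out IgG replicate 7 gave 0.36. The genes most like Abca1 were Parp11 (r = 0.86), the stress kinase Map3k5 (r = 0.84) and Rab6b (r = 0.84). Parp11 had from 447 to 885 normalized counts with anti-CD22 and from 288 to 590 with IgG, which is 0.33 on the log2 scale (adjusted p = 0.433 by limma).

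Abcg1, which passes cholesterol on to lipoprotein particles that already hold lipid (chromosome 17: 31057675 to 31117988, plus strand), had from 2314 to 3018 normalized counts with anti-CD22 (median 2514). With IgG it had from 2158 to 3211 (median 2445). IgG replicate 7 was the highest library and anti-CD22 replicate 5 came next, with the other 12 mixed below them. Between the groups Abcg1 differed by 0.08 on the log2 scale (SE 0.09, 95% interval from -0.11 to 0.26, adjusted p = 0.734 by limma), and by -0.0027 after removal of the length and GC trend. Leaving out IgG replicate 7 gave 0.14 (adjusted p = 0.427 by limma), and leaving out anti-CD22 replicate 5 gave 0.039. The log2 ratio of Abcg1 to Abca1 within a library averaged -1.26 ± 0.29 with anti-CD22 and -1.06 ± 0.21 with IgG (SD, n = 7 each). Its difference of -0.19 (SE 0.14) had a two-sided exact permutation p of 0.196 over 3432 assignments of libraries to groups, adjusted to 0.589 over 3 ratios, and was -0.09 with the trend removed.

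**Figure D4:**
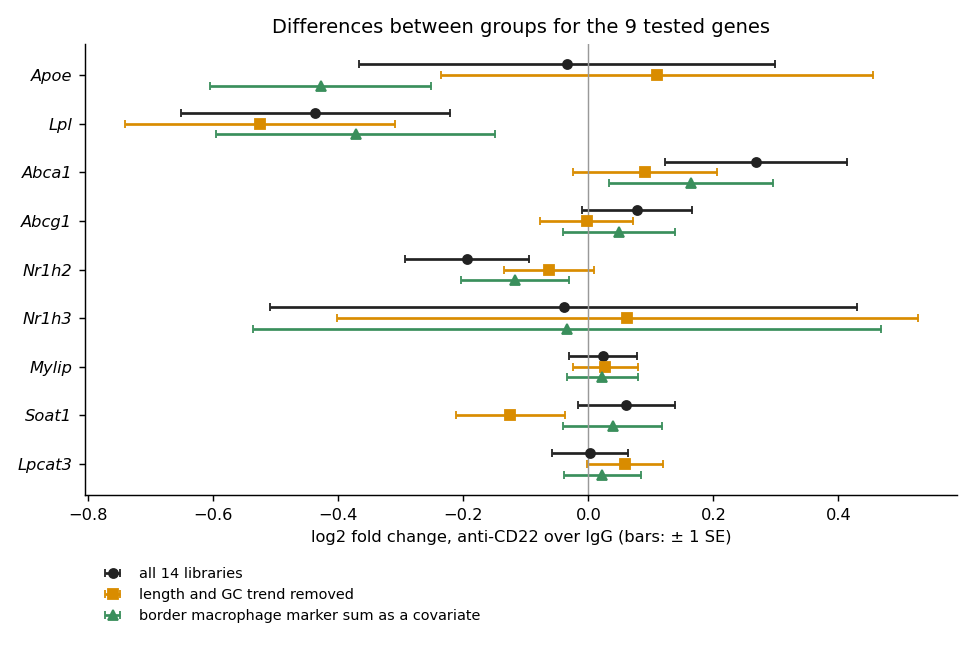
Log2 fold change of anti-CD22 over IgG for the 9 tested genes, with bars of 1 SE, in all 14 libraries (black circles), with the length and GC trend removed (orange squares) and with the border macrophage sum as a covariate (green triangles). Apoe moves from -0.03 to -0.43 with the covariate, and Abca1 from 0.27 to 0.09 with the trend removed.

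The LXR genes differed widely in level. Nr1h2, which encodes the broadly expressed LXR-beta (chromosome 7: 44549616 to 44553951, minus strand), had from 1686 to 2345 normalized counts with anti-CD22 (median 2147). With IgG it had from 1945 to 2957 (median 2224). Its 2 lowest libraries were anti-CD22 replicates 2 and 3 and its 3 highest were IgG replicates 5, 6 and 7, with the others mixed. For Nr1h2 the log2 fold change was -0.19 (SE 0.10, 95% interval from -0.40 to 0.01), with an unadjusted p of 0.0652 and an adjusted p of 0.423 by limma. Removal of the length and GC trend gave -0.06, and leaving out anti-CD22 replicates 1, 2 and 3 also gave -0.06.

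Nr1h3, which encodes LXR-alpha (chromosome 2: 91184061 to 91202834, minus strand), was low, with from 12.2 to 73.3 normalized counts with anti-CD22 (median 44.2) and from 14.5 to 69.4 with IgG (median 35.7). High and low libraries occurred in both groups. In whole reads it rested on 11 to 100 per library, and its log2 fold change was -0.04 (SE 0.47, adjusted p = 0.982 by limma). The 95% interval from -1.02 to 0.94 leaves room for nearly a 2-fold difference in either direction. The exons of Nr1h3 overlap the same-strand transcript Gm13783 over 34 of 2515 bases. The log2 ratio of Nr1h3 to Nr1h2 averaged -5.90 ± 1.05 with anti-CD22 and -6.05 ± 0.83 with IgG (SD, n = 7 each), a difference of 0.16 (SE 0.50, two-sided exact permutation p = 0.777, adjusted p = 0.777).

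The remaining genes act downstream of LXR or on stored and membrane lipid. Mylip encodes IDOL, an LXR-induced ubiquitin ligase that marks the LDL receptor for breakdown (chromosome 13: 45389742 to 45412022, plus strand). It had from 5692 to 6782 normalized counts with anti-CD22 (median 6541) and from 5803 to 6677 with IgG (median 6317). The groups overlapped almost fully, and the log2 fold change of Mylip was 0.02 (SE 0.05, adjusted p = 0.888 by limma). Its 95% interval, from -0.09 to 0.14, was the narrowest of the 9.

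Soat1, which esterifies cholesterol for storage in droplets (chromosome 1: 156424525 to 156474331, minus strand), had from 4510 to 6343 normalized counts with anti-CD22 (median 5582). With IgG it had from 4651 to 6128 (median 5130). The highest and the lowest library were both of the anti-CD22 group. Soat1 differed by 0.06 on the log2 scale (SE 0.08, 95% interval from -0.10 to 0.22, adjusted p = 0.769 by limma). Removal of the length and GC trend turned this to -0.12 (unadjusted p = 0.167).

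Lpcat3, an enzyme that places polyunsaturated fatty acids in membrane phospholipids and is a known LXR target (chromosome 6: 124663027 to 124704418, plus strand), had the highest mean count of the 10, although Apoe exceeded it by count in anti-CD22 replicates 1, 2 and 4 and in IgG replicates 1, 2 and 7. It had from 9323 to 11407 normalized counts with anti-CD22 (median 10248) and from 9000 to 11736 with IgG (median 9994). The highest and the lowest library were both of the IgG group. Lpcat3 had a log2 fold change of 0.0026 (SE 0.06), with a 95% interval from -0.13 to 0.13 and an adjusted p of 0.991 by limma. Of its 3268 exon bases, 334 (10.2%) overlap Emg1 on the opposite strand, and whether counting used strand is not given in the sources used here. Lpcat3 correlated with the microglia marker sum with r = 0.80 (permutation p = 0.00169, adjusted p = 0.0406), but with rho = 0.63 (permutation p = 0.0239, adjusted p = 0.246), and r was 0.55 without the 2 libraries farthest from its median. The relation was thus weaker without those 2 libraries.

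Per kilobase of longest transcript, Apoe led with a mean of 6272 normalized counts per kb over the 14 libraries, followed by Lpcat3 (4300), Mylip (2072) and Nr1h2 (1104). Soat1 (638), Abca1 (560), Abcg1 (432), Lpl (329), Nr1h3 (20.01) and Apoc1 (3.37) came after them. Apoe exceeded Lpcat3 in 9 of 14 libraries, so the first pair of this order did not separate beyond the spread, and Soat1 exceeded Abca1 in 11 of 14. Every other neighbour in the order was separated in 13 or 14 of 14 libraries.

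Whether the genes moved together across libraries was tested over 36 pairs of the 9 genes, with group means removed. No pair passed an adjusted p of 0.05 (0 of 36), and 4 had an unadjusted permutation p under 0.05. Abca1 and Abcg1, the efflux pair, had r = 0.64 (permutation p = 0.0240, adjusted p = 0.377) and rho = 0.67 (permutation p = 0.0152, adjusted p = 0.274). Without the 2 libraries farthest from the median of Abca1, r was 0.34, so this relation rested on them. It was also uneven between the groups, with r = 0.89 in IgG libraries and 0.16 in anti-CD22 libraries (n = 7 each). IgG replicate 7 was the highest IgG library for both genes. Nr1h2 correlated negatively with Apoe, at r = -0.58 (permutation p = 0.0394, adjusted p = 0.377) and rho = -0.58 (permutation p = 0.0465, adjusted p = 0.335). This relation was also weaker in both alternatives. Its r was -0.44 once the trends were taken out of each library, and -0.47 without the 2 farthest libraries. The other two were Nr1h3 with Soat1 (r = 0.57) and Nr1h2 with Soat1 (r = -0.55), which were 0.29 and -0.09 with the length and GC trend removed.

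LXR with a retinoid X receptor binds a direct repeat of AGGTCA spaced by 4 bases, known as DR4. RefSeq promoters (GRCm38.p6, 250 bases before to 50 after the start) were matched for 7 of the 10 genes. Apoc1, Lpl and Abcg1 had no promoter entry and were not searched, and neither were sites outside this window. With at most 2 mismatches in the 12 letters of the repeat, on either strand, 0 of the 7 held a match, beside 3.47% of 27025 genes searched. With at most 3 mismatches, a limit chosen after seeing the data, 1 of the 7 held a match, Abca1, beside 24.5% of all genes. The Abca1 promoter (chr4:53159846-53160145, minus strand) is shown because that match is the only one among these genes, with the 16 bases of the match in capitals, from -67 to -52 relative to the start.
Abca1 promoter: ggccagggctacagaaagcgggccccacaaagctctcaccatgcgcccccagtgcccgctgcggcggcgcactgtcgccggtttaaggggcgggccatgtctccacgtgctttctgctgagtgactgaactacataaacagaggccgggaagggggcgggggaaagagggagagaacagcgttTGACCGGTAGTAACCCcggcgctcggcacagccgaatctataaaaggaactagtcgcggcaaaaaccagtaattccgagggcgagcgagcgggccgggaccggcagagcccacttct
Read on the opposite strand the match is GGGTTACTACCGGTCA. It describes letters in the reference and shows neither binding nor a cause of the levels above.

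The wider pathway was followed with lists of genes that act with these 10. In none of them did a gene pass the adjusted threshold, so the counts below are of unadjusted p under 0.05, where 6.8% of all genes tested were higher and 5.95% lower with anti-CD22. The largest counts were among the retinoid X receptors and cofactors of LXR, with 6 of 16 higher and 2 lower. Ep300, a histone acetyltransferase, had from 963 to 1492 normalized counts with anti-CD22 and from 695 to 1078 with IgG, and all 7 anti-CD22 libraries exceeded the median of IgG. Its log2 fold change was 0.38 (SE 0.11, adjusted p = 0.219 by limma). The corepressor gene Nrip1 had 0.24 (adjusted p = 0.258) and the receptor gene Rxrg -0.39 (adjusted p = 0.334). Rxrg had from 287 to 483 normalized counts with anti-CD22 and from 303 to 653 with IgG.

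The median of these 16 genes was 0.18 on the log2 scale. Once the length and GC trend was removed it was 0.07, and 2 of the 16 had an unadjusted p under 0.05. Nrip1 was then at 0.06 and Ep300 at 0.23.

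Of the other ABC transporters of the A and G families, 2 of 8 tested were higher and 0 lower, with a median of 0.25, or 0.17 with the trend removed. Abca3, a lipid transporter best known from lung surfactant, had from 1064 to 1653 normalized counts with anti-CD22 and from 865 to 1712 with IgG. All 7 anti-CD22 libraries exceeded its median in IgG, and the log2 fold change was 0.44 (SE 0.15, adjusted p = 0.267 by limma). For Abca9 it was 0.39 (adjusted p = 0.289), and this was 0.14 without anti-CD22 replicates 1, 2 and 3. Abca5, at no more than 103 normalized counts, had 1.77 (SE 1.00, adjusted p = 0.462).

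Other genes described as LXR targets gave 1 of 14 higher and 0 lower. Of the 14, 11 had a log2 fold change above 0 and 3 below 0, where 49.8% of all genes tested lay below 0. Their median was 0.14, or 0.13 with the trend removed. This list also holds Nr1h3 and Abca7. The desaturase gene Fads1 had 0.17 (SE 0.07, adjusted p = 0.319 by limma), the desaturase gene Scd2 0.25 (adjusted p = 0.398) and Smpdl3a 0.18 (adjusted p = 0.402). With the trend removed these 3 genes had 0.18, 0.15 and 0.21. Without anti-CD22 replicates 1, 2 and 3 they had 0.12, 0.10 and 0.10.

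Genes of lipoprotein uptake gave 1 of 12 higher and 2 lower, with a median of -0.08. The receptor gene Scarb1, which takes up cholesterol ester from lipoproteins, had from 1499 to 1922 normalized counts with anti-CD22 and from 1623 to 2748 with IgG. Its log2 fold change was -0.21 (SE 0.10, adjusted p = 0.382 by limma) and -0.22 with the trend removed. The sorting receptor gene Sorl1 had 0.28 (adjusted p = 0.376 by limma), which was 0.12 with the trend removed.

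Genes that fold, cut or inhibit lipoprotein lipase, with its sister lipases, gave 1 of 6 tested higher and 0 lower. That gene was Sel1l, which helps to fold the lipase, at 0.23 on the log2 scale (SE 0.07, adjusted p = 0.239 by limma), or 0.10 with the trend removed. Furin had 0.13 and Lmf2 -0.14. Sterol storage, export and oxysterol genes gave 1 of 16 higher and 2 lower, with a median of -0.01. The cholesterol ester hydrolase gene Nceh1 had 0.29 (adjusted p = 0.312), the sterol transfer gene Stard3 -0.16 (adjusted p = 0.324) and the sterol synthesis gene Cyp51 -0.19 (adjusted p = 0.372), all by limma. With the trend removed they had 0.19, -0.07 and -0.25. Without anti-CD22 replicates 1, 2 and 3 they had 0.10, -0.10 and -0.24.

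The enzymes of the same reaction class as Lpcat3 gave 0 of 7, with a median of -0.05. Among them Mboat7 had a log2 fold change of -0.09, Lpcat1 -0.09 and Lpcat2 -0.05. Of 13 other apolipoproteins only Clu passed the filter on low values, with from 12.99 to 64.5 normalized counts with anti-CD22 and from 13.6 to 98.7 with IgG (log2 fold change 0.11, SE 0.43, adjusted p = 0.936 by limma).

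**Figure D5:**
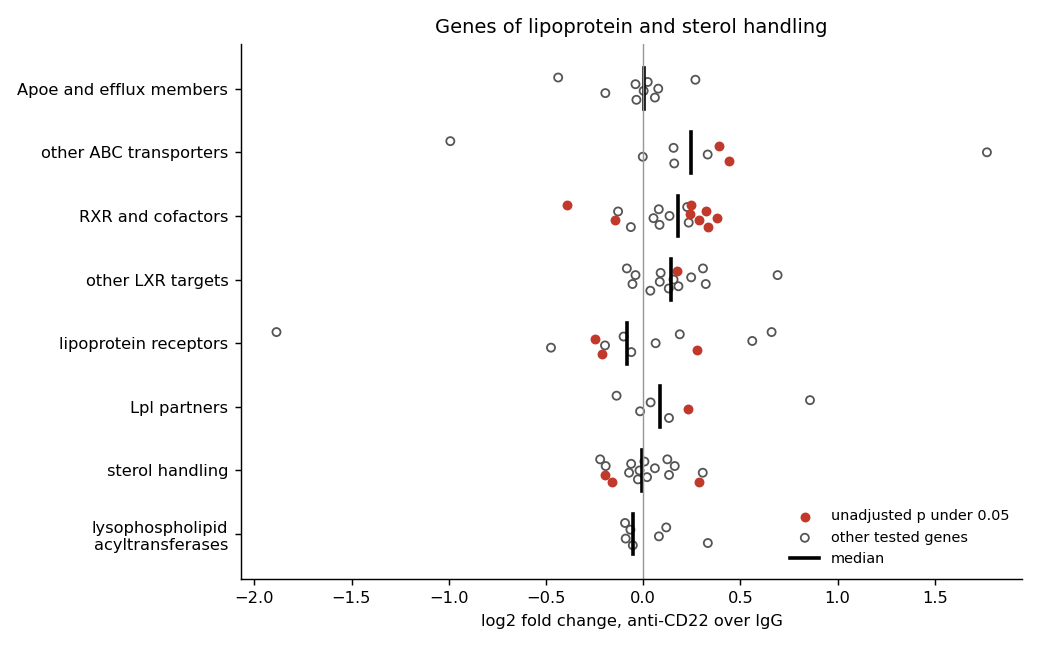
Log2 fold change of anti-CD22 over IgG for each tested gene of 8 lists, with filled red points for an unadjusted p under 0.05, open points for other genes and a black line at the list median. The 9 genes of the top row have no filled point, and the row of retinoid X receptors and cofactors has 8, of which 6 lie above 0.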

How the data were processed

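RNA-seq of 14 libraries was analysed from the deposited table. Per the submitters' processing notes the tools were bcl2fastq, STAR and DESeq2, with mm10. The authors' values are normalized counts, a signal in which each library's counts are whole multiples of 1 step, within 0.1 reads. Entries whose names had become dates (27) were left out (at most 0.149% of a library's counts).

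The main test was limma 3.58.1 (R 4.3.3) on log2(normalized count + 1), moderated along a mean-variance trend, two-sided, with Benjamini-Hochberg adjustment over 11646 genes. Whole reads were used for 13 libraries (100% of values). The step of anti-CD22 replicate 3, 1.00925, was taken as too near 1, so edgeR 4.0.16 (quasi-likelihood) and DESeq2 1.42.0 left this library out. Its values were nonetheless also whole multiples of that step (100% of values). Correlations used 100000 permutations within groups. Length and GC content came from GENCODE vM21 (96.4% of tested genes) and were fitted with natural splines of 4 degrees of freedom. Intervals cover the spread between libraries. Fits were tested on simulated data.

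The genes and lists were chosen with earlier results of these data known. Besides the 10 genes, the text names the 3 tested genes of each list with the smallest p, and the 3 genes with the highest r with Apoe, Lpl and Abca1. A gene that this rule takes is not reported here.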

Additional observations from a re-analysis of the deposited data

Results flagged for a closer look

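Abcg1 in IgG replicate 7, at 3211 normalized counts, stood far from the other 6 IgG libraries, which lay between 2158 and 2529. The gap to its nearest neighbour was 0.648 of the group's whole range, above Dixon's critical value of 0.568 for 7 samples. This was 1 of 20 groups examined, and chance flags about 1 in 20. Without it the log2 fold change of Abcg1 was 0.14, beside 0.08 with it.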

How the results depend on the processing

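None of the 9 tested genes passed an adjusted p of 0.05 under any alternative run, and 234 of their recomputed fold changes kept their direction, while 35 did not. No pair of them passed an adjusted p of 0.05 in any of the 3 alternatives for pairs (0 each). Of all genes tested, limma called 1, and 0 without the mean-variance trend, 8 with sample weights, 0 with the length and GC trend removed (1002 at an unadjusted p under 0.05), 0 without anti-CD22 replicates 1, 2 and 3, and 0 with the border macrophage covariate, alone or with the trend removed. On 13 libraries edgeR called 0 (1016 at an unadjusted p under 0.05) and DESeq2 40. Leaving out 1 library gave 0 to 43 calls, with 43 without anti-CD22 replicate 7. Directions turned as follows. Sample weights gave Apoe 0.060, Nr1h3 0.051 and Lpcat3 -0.019. Removal of the trend gave Apoe 0.11, Abcg1 -0.0027, Nr1h3 0.062 and Soat1 -0.12, also with a replicate block. With the covariate and the trend removed Abcg1 was -0.017, Nr1h3 0.040 and Soat1 -0.088. Nr1h3 was 0.20 by edgeR and by DESeq2, and 0.0053 without anti-CD22 replicates 1, 2 and 3. Leaving out 1 library moved Apoe from -0.18 to 0.19, Lpcat3 from -0.027 to 0.037, Nr1h3 from -0.24 to 0.19 and the Nr1h3 to Nr1h2 ratio from -0.030 to 0.42. The cause was not tested. Same-numbered libraries correlated at -0.145 to 0.16, and whether the replicate numbers pair them cannot be told from these values. As a replicate block they gave 2 calls, none of them among these genes, and Lpl an unadjusted p of 0.00828 (adjusted p = 0.225). In that fit Nr1h2 had an unadjusted p of 0.0202 (adjusted p = 0.277 by limma). The SE of Apoe was 0.165 with the block, beside 0.333 without it. Depth limits Apoc1, and the spread between libraries limits Apoe and Nr1h3 (counting error 5.63% of its variance within groups).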
